A study of Mus musculus with 4 samples.

Results

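The genes described here are the Wnt ligands and the genes through which cells receive, tune and answer Wnt signals: 54 genes on 55 probe sets, out of 19938 genes with a single symbol on the same arrays. They were picked by gene symbol, with earlier results of these data known. There are 18 Wnt ligands, 12 receptors and co-receptors (10 Frizzled genes, Lrp5 and Lrp6), 7 genes of the R-spondin branch (Rspo1 to Rspo4 and the receptors Lgr4, Lgr5 and Lgr6) and 10 secreted inhibitors. The last 7 are 3 transcription factors of the TCF/LEF family and 4 genes of negative feedback. The arrays measured total RNA from cells of the D3 mouse embryonic stem (ES) cell line, with 1 array for each condition. Embryoid bodies (EBs), which are aggregates that begin to form derivatives of all germ layers, were analysed at day 7, having spent 2 days in hanging drops and the next 5 in suspension, as bexarotene-treated, retinoic acid (RA)-treated or untreated EBs. The fourth condition was undifferentiated ES cells. Bexarotene, a synthetic ligand of the retinoid X receptor, was used at 50 nM. RA is the natural ligand of the retinoic acid receptor. Its dose stands as 5 µM in the sample labels and as 10 nM in the article, and by either account it was unlike that of bexarotene.

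Wnt proteins are secreted, lipid-modified signals that bind Frizzled receptors. In the canonical branch, Frizzled acts together with Lrp5 or Lrp6, β-catenin escapes degradation, and TCF/LEF factors switch on target genes. R-spondins, which bind Lgr receptors, raise the response by removing the ubiquitin ligases Znrf3 and Rnf43 that clear Frizzled from the cell surface, while Dkk proteins block the co-receptors and Sfrp proteins and Wif1 bind the ligands. In the embryo, Wnt signals are high at the posterior end and are held low where the forebrain forms.

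Values are log2 array signal, already normalized by the authors, and differences are between 2 arrays on that scale. Genes count as higher or lower here past 1.5-fold, which is 0.585 on the log2 scale and is the threshold of the study. With no replicate there is no test, and every such count describes 2 arrays. As a guide to scale, the bexarotene array minus the RA array had a robust SD of between 0.0717 and 0.138 over genes of similar signal. This holds any real difference of the ligands and does not measure how cultures vary. The untreated EB and ES cell labels were set against marker genes: untreated EBs were past 1.5-fold below ES cells in all 10 genes of pluripotent cells and above them in 7 of 8 genes of anterior endoderm. Of all genes, 8.62% were past it lower and 11.2% higher. Not every list differed: none of 9 measured genes of the primitive streak and posterior growth zone was past it either way. The array medians lay between 6.66 and 6.69.

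Most of the Wnt pathway genes past 1.5-fold with either ligand were lower than in untreated EBs. In bexarotene-treated EBs, 10 of the 54 genes were past 1.5-fold lower than in untreated EBs (18.5%), where 2.19% of all genes were. These were the ligand genes Wnt5a and Wnt8b, the receptors Fzd5, Fzd6 and Fzd8, the agonists Rspo2 and Rspo3, their receptor Lgr5, the inhibitor Dkk1 and the transcription factor Lef1. Wnt7a, Fzd10 and Sfrp2 were past it higher, 5.56% of the 54 beside 1.52% of all genes, and under quantile or loess normalization Fzd9 was as well. In RA-treated EBs, 9 genes were lower (16.7%, beside 2.29% of all genes) and 2 were higher (3.7%, beside 2.11%). The genes lower with RA were those just listed without Rspo2, and those higher were Wnt7a and Sfrp2. Both comparisons use the same untreated array, so they are not independent of each other. In bulk RNA from a mixed aggregate, fewer cells of a type and less RNA per cell cannot be told apart.

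**Figure D1:**
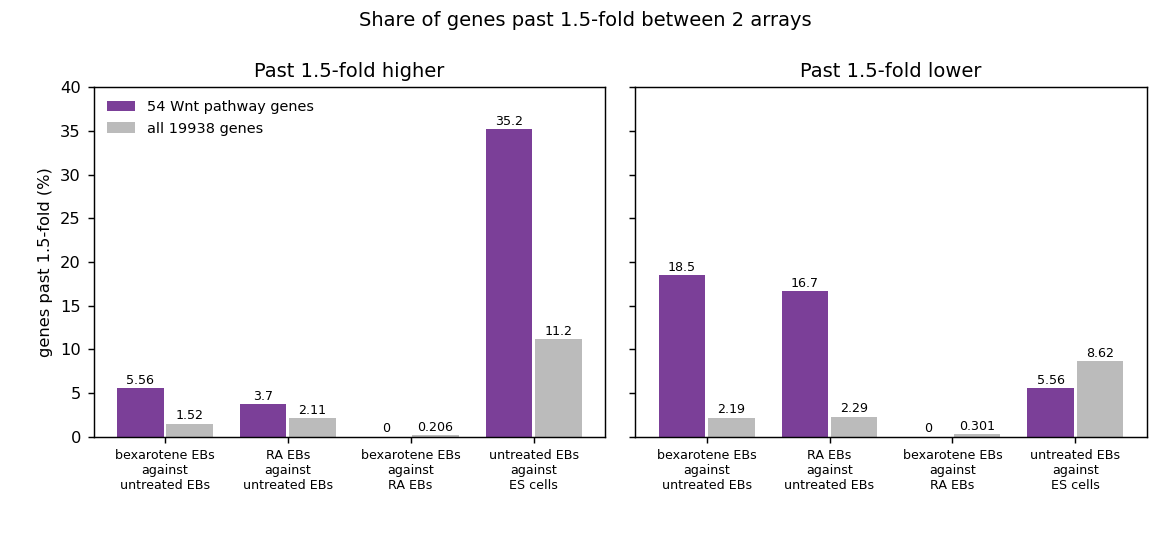
Percentage of genes past 1.5-fold higher (left panel) or lower (right panel) between 2 arrays, for 54 Wnt pathway genes (purple) and all 19938 genes (grey), in each of 4 comparisons. With bexarotene 18.5% of the Wnt pathway genes were lower, beside 2.19% of all genes, and in untreated EBs against ES cells 35.2% were higher, beside 11.2%.

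At a threshold of 2-fold, 2 of the 54 genes were higher and 8 lower with bexarotene, where 0.517% and 0.838% of all genes were. With RA, 2 were higher and 6 lower, where 0.667% and 0.808% of all genes were. The median log2 difference over the 54 genes was -0.04 with bexarotene and -0.06 with RA, and over all genes it was -0.008 with bexarotene and 0 with RA. The median size of the difference, whatever its sign, was 0.23 with bexarotene and 0.22 with RA in the 54 genes, and 0.11 and 0.12 in all genes. Most of the 54 genes thus stayed within 1.5-fold of untreated EBs with either ligand.

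Among the ligands, Wnt7a stood apart. Wnt7a is a ligand of the embryonic neural tube and limb, and its log2 signal was 7.31 in bexarotene-treated EBs and 7.62 in RA-treated EBs, against 5.73 in untreated EBs and 5.74 in ES cells. Signal was thus high only in the ligand-treated cultures, 2.98-fold above untreated EBs with bexarotene and 3.70-fold with RA. Wnt5a, a ligand of the noncanonical branch that acts in elongation of the body axis, showed the reverse pattern. Its signal was 6.79 with bexarotene and 6.73 with RA, against 8.02 in untreated EBs and 6.17 in ES cells. That is 2.35-fold below untreated EBs with bexarotene and 2.46-fold with RA, although both treated arrays stayed above the ES cell array. Wnt8b, which is expressed in the developing forebrain, had a signal of 5.77 with bexarotene, 6.03 with RA, 6.80 in untreated EBs and 5.78 in ES cells. Its signal was above the array median only in untreated EBs, and with bexarotene it was at the ES cell value.

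The other 15 ligands differed from untreated EBs by between -0.36 (Wnt10b) and 0.29 (Wnt6) with bexarotene, and with RA by between -0.21 (Wnt4) and 0.32 (Wnt11). Of all 18 ligands, 7 were below the array median on all 4 arrays: Wnt2, Wnt2b, Wnt3a, Wnt6, Wnt8a, Wnt10b and Wnt16. Near background, array signal understates a difference. Wnt4, which acts in kidney and gonad formation, was at 7.07 with bexarotene, 6.98 with RA, 7.19 in untreated EBs and 6.85 in ES cells. Its other probe set differed from untreated EBs by -0.11 with bexarotene and -0.01 with RA. Wnt11, a noncanonical ligand of gastrulation and heart formation, was at 7.63 with bexarotene, 7.89 with RA, 7.56 in untreated EBs and 6.92 in ES cells. Wnt9b, another ligand of kidney formation, was at 7.30, 7.15, 7.01 and 7.25 in the same order. None of these 3 was past the threshold between EB arrays.

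The promoter of Wnt7a is shown because this ligand had the largest higher value of the 54 genes with either treatment. It comes from RefSeq (GRCm38.p6, chr6:91411354-91411603, minus strand) and holds the 250 bases before the start, 5′ to 3′. Of the 54 genes, 35 have a promoter in that table, 43 promoters in all. Windows of 300 bases, from 250 before to 50 after the start, were searched on both strands for the TCF/LEF motifs CTTTGAT and CTTTGTT and for the nuclear receptor half-site AGGTCA in this spelling alone. The TCF/LEF motifs are alike in all but their sixth letter, and neither contains the half-site. In the Wnt7a window none of these was found.
Wnt7a: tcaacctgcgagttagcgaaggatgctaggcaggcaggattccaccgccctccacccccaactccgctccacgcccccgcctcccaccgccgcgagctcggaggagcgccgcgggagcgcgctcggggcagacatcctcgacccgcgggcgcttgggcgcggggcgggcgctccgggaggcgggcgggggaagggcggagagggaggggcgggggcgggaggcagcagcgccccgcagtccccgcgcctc

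**Figure D2:**
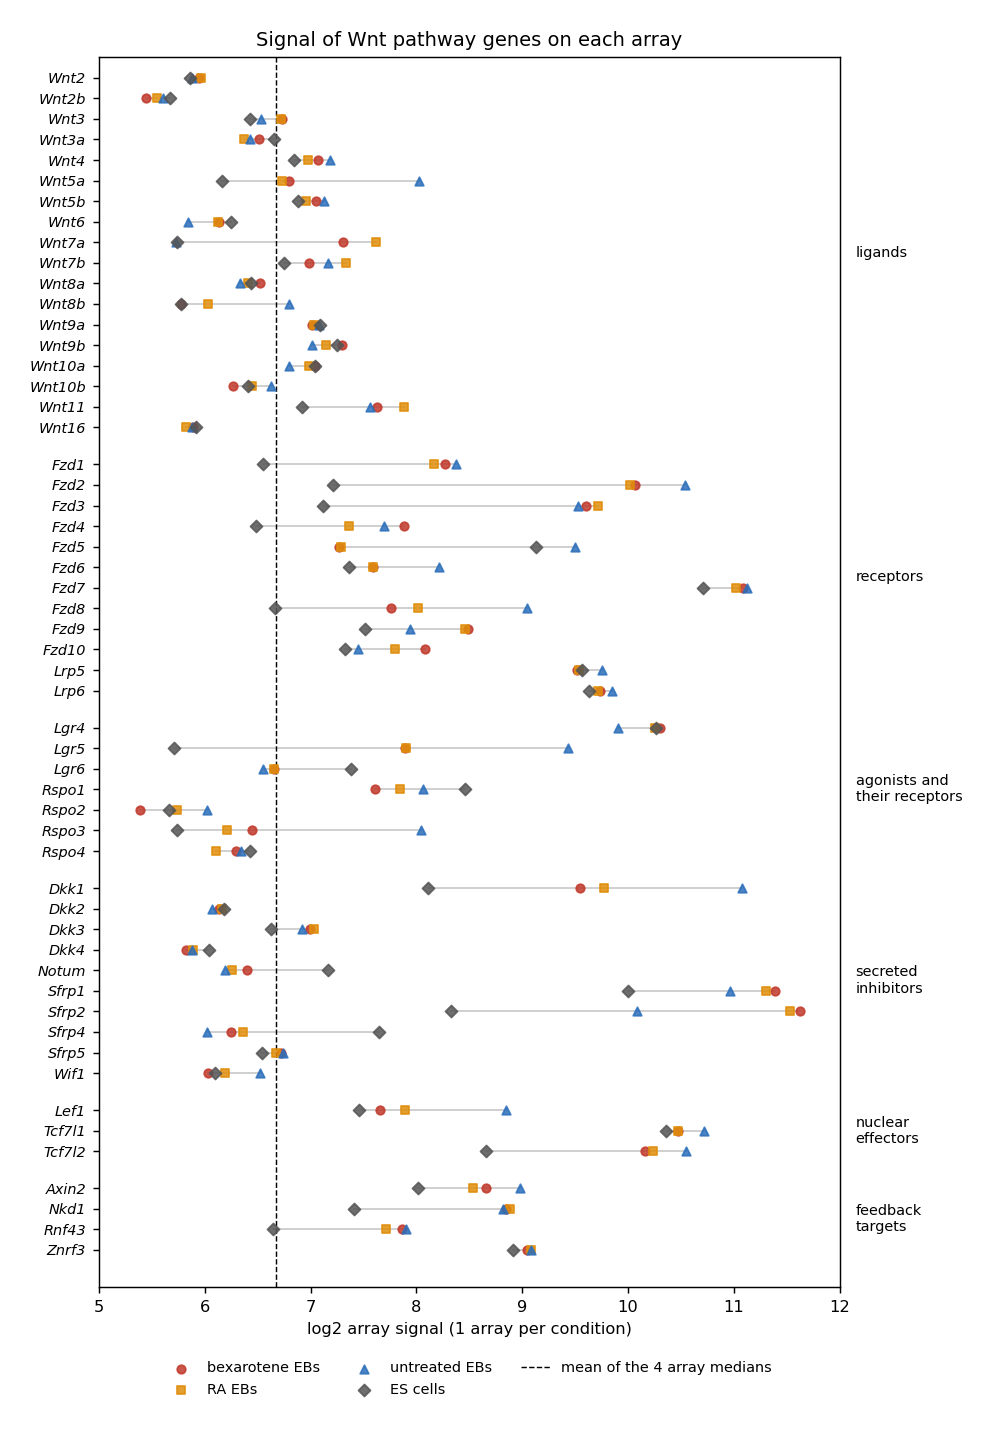
Log2 array signal (x axis) of the 54 Wnt pathway genes in bexarotene EBs (circles), RA EBs (squares), untreated EBs (triangles) and ES cells (diamonds), with 1 array per condition, genes grouped by role and a dashed line at the mean of the array medians. Levels are to be compared along a row and not between genes, and Wnt7a at 7.31 and 7.62 with the ligands stands right of 5.73 in untreated EBs while Fzd5, Lgr5, Rspo3, Dkk1 and Lef1 have the untreated EBs as the rightmost point.

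The Frizzled receptors are taken here by subfamily. Fzd5 and Fzd8, close relatives that act in the eye field and forebrain, were the receptors furthest below untreated EBs. Fzd5 had a signal of 7.27 with bexarotene and 7.29 with RA, against 9.50 in untreated EBs and 9.13 in ES cells. It lay 4.70-fold below untreated EBs with bexarotene and 4.63-fold with RA, the largest lower value among the 54 genes, and it was also below ES cells, by 3.65-fold with bexarotene and by 3.60-fold with RA. Fzd8 had a signal of 7.76 with bexarotene, 8.01 with RA, 9.04 in untreated EBs and 6.66 in ES cells. It lay 2.43-fold lower than untreated EBs with bexarotene and 2.04-fold with RA, while both treated arrays remained above ES cells.

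Fzd4, Fzd9 and Fzd10 form another subfamily. Fzd10, a receptor of the dorsal neural tube, had a signal of 8.08 with bexarotene, 7.80 with RA, 7.44 in untreated EBs and 7.33 in ES cells. Its difference from untreated EBs was 0.64 with bexarotene, past the threshold, and 0.35 with RA, short of it. Fzd9 was just short of the threshold with both ligands, at 0.54 with bexarotene and 0.52 with RA. With bexarotene it was past it under quantile (0.61) and loess (0.59) normalization. Fzd4, which also serves the ligand norrin in blood vessels of the retina, was at 7.88 with bexarotene, 7.37 with RA, 7.69 in untreated EBs and 6.48 in ES cells. In this gene alone among the receptors the treated arrays lay on either side of the untreated one.

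Of the pair Fzd3 and Fzd6, which act in planar cell polarity, Fzd6 was 1.54-fold below untreated EBs with both ligands, only just past the threshold, and under quantile normalization it fell short of it with both (-0.57 with bexarotene and -0.58 with RA). Fzd3 differed by 0.07 with bexarotene and 0.19 with RA. Fzd1, Fzd2 and Fzd7 ranged from -0.47 to -0.03 with bexarotene and from -0.52 to -0.10 with RA, and in both cases Fzd2 was the lowest. Fzd7, a receptor active in ES cells, had nearly the same signal on the EB arrays, at 11.09 with bexarotene, 11.02 with RA and 11.12 in untreated EBs, and 10.71 in ES cells. Differences of the co-receptor genes were small as well. Lrp6 was at 9.74 with bexarotene, 9.72 with RA, 9.85 in untreated EBs and 9.63 in ES cells, and Lrp5 differed from untreated EBs by -0.23 with bexarotene and -0.22 with RA.

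The Fzd5 promoter is shown because this gene had the largest difference of all 54 with both ligands. The 250 bases before the start (RefSeq, GRCm38.p6, chr1:64737751-64738000, minus strand) are 76.4% G and C, and none of the 3 motifs was found in its window.
Fzd5: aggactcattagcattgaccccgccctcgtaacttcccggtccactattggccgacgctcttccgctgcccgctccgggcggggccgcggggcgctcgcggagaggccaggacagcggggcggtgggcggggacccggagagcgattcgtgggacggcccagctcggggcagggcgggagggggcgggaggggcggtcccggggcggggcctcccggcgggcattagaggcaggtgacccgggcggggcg

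**Figure D3:**
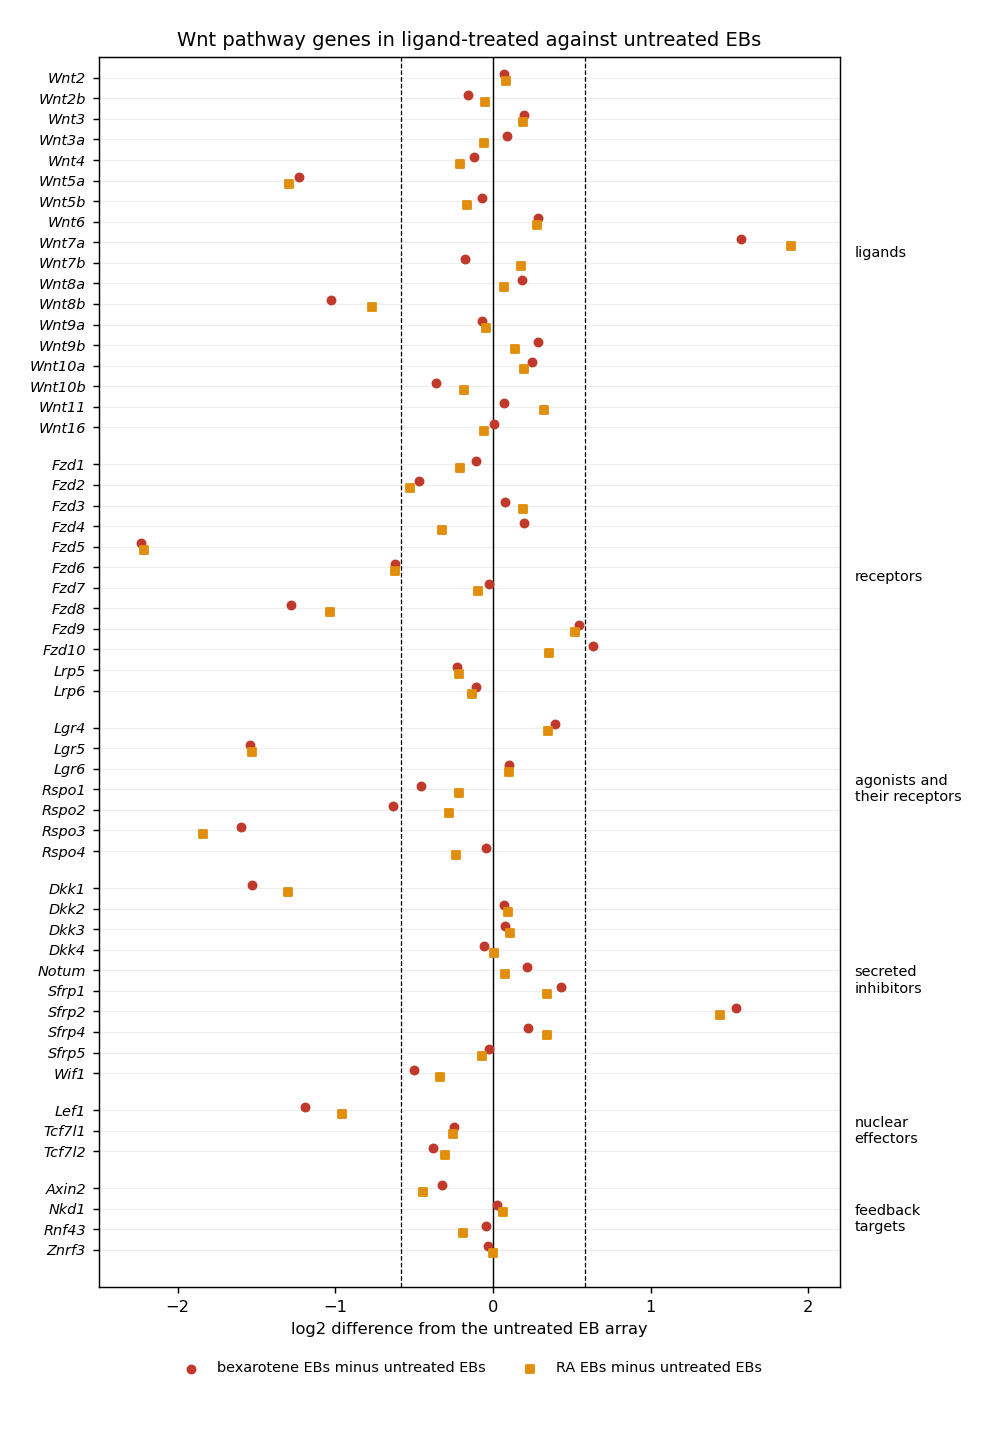
Log2 difference from the untreated EB array (x axis) of the 54 Wnt pathway genes in bexarotene EBs (circles) and RA EBs (squares), with genes grouped by role and dashed lines at 1.5-fold. Fzd5 lies furthest left (-2.23 with bexarotene and -2.21 with RA) and Wnt7a furthest right (1.58 with bexarotene and 1.89 with RA).

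In the R-spondin branch, 3 of 7 genes were past 1.5-fold lower with bexarotene and 2 of 7 with RA. These are 42.9% and 28.6%, beside 2.19% and 2.29% of all genes. With either ligand, 3 of 12 receptors (25%) and 1 of 3 TCF/LEF factors (33.3%) were past it lower. Rspo3, an agonist of the gastrulating embryo and of developing vessels, had a signal of 6.45 with bexarotene and 6.21 with RA, against 8.05 in untreated EBs and 5.74 in ES cells. Untreated EBs thus had the only Rspo3 signal above the array median, and it was 3.58-fold lower with RA. Lgr5, a receptor for R-spondins and a target gene of the pathway, had a signal of 7.89 with bexarotene, 7.90 with RA, 9.43 in untreated EBs and 5.71 in ES cells. The treated arrays differed from each other by 0.009 for Lgr5 and lay between the untreated EBs and the ES cells. Rspo2 was 1.55-fold lower with bexarotene, but its signal was below the array median everywhere, at 5.39 with bexarotene, 5.74 with RA, 6.02 in untreated EBs and 5.66 in ES cells.

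The remaining members of this branch were not past the threshold between EB arrays. Rspo1 was at 7.61 with bexarotene, 7.85 with RA, 8.07 in untreated EBs and 8.46 in ES cells, so that ES cells had the highest value. Lgr4, the most broadly expressed of the Lgr receptors in the mouse, was at 10.30 with bexarotene, 10.25 with RA, 9.90 in untreated EBs and 10.26 in ES cells. Its untreated array was the lowest of the 4, unlike that of Lgr5. Lgr6 and Rspo4 differed from untreated EBs by 0.10 and -0.04 with bexarotene, and by 0.10 and -0.23 with RA.

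Among the secreted inhibitors, Sfrp2 and Dkk1 differed in opposite directions. Sfrp2, a Wnt-binding protein of neural progenitors and mesenchyme, had a signal of 11.62 with bexarotene and 11.53 with RA, against 10.08 in untreated EBs and 8.33 in ES cells. It was 2.91-fold above untreated EBs with bexarotene and 2.72-fold with RA, in addition to the 3.38-fold by which untreated EBs exceeded ES cells. Dkk1, which blocks Lrp5 and Lrp6 and is needed for head formation in the mouse, had a signal of 9.55 with bexarotene, 9.78 with RA, 11.08 in untreated EBs and 8.11 in ES cells. It was 2.88-fold below untreated EBs with bexarotene and 2.46-fold with RA, and remained above ES cells on both arrays.

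Sfrp1, which like Sfrp2 binds Wnt ligands, was 0.43 above untreated EBs with bexarotene and 0.34 with RA, short of the threshold. Its signal was 11.39 with bexarotene, 11.30 with RA, 10.96 in untreated EBs and 9.998 in ES cells, the same order of arrays as for Sfrp2. Wif1 was below untreated EBs by 0.50 with bexarotene and 0.34 with RA, at signals below the array median. Dkk2, Dkk3, Dkk4, Notum, Sfrp4 and Sfrp5 differed by between -0.06 and 0.22 with bexarotene and between -0.07 and 0.34 with RA. Notum, an enzyme that removes the lipid from Wnt proteins, was highest in ES cells, at 7.17, and was at 6.40 with bexarotene, 6.26 with RA and 6.19 in untreated EBs.

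The promoters of these inhibitor genes are printed to set a gene that was higher beside one that was lower with both ligands. Capitals mark the motif CTTTGTT, which was found once, in Dkk1, and begins 98 bases before the start (RefSeq, GRCm38.p6, Dkk1 at chr19:30549497-30549746, minus strand, and Sfrp2 at chr3:83766071-83766320, plus strand). Dkk1 was added to this set after its values were seen, as a lower gene whose promoter holds a TCF/LEF motif. That a printed promoter holds a motif was thus fixed by this choice.
Dkk1: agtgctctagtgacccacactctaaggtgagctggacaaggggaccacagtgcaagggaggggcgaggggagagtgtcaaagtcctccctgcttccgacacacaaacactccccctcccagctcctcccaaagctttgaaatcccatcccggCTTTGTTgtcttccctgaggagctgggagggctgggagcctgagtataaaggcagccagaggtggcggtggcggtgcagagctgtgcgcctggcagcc
Sfrp2: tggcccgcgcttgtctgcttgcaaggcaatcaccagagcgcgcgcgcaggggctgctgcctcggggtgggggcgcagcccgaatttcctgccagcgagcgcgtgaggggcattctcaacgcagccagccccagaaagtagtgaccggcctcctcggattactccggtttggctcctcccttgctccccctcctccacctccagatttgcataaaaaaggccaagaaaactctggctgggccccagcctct

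Over the 43 promoters, 6 (14%) held a TCF/LEF motif, those of Dkk1, Fzd7, Tcf7l2, Wnt3, Wnt5b and Wnt11, beside 9.33% of the 32851 promoters of all genes. The half-site AGGTCA was in 1 (2.33%), that of Wnt16, beside 16.3% of all promoters. Of the genes past 1.5-fold lower with both ligands, 4 have a promoter in the table, 7 promoters in all, and that of Dkk1 was the only one with any of the 3 motifs. The Wnt7a and Sfrp2 promoters, of the genes that were higher with both, held none. A match is a run of letters and not a tested site.

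Of the TCF/LEF factors, Lef1 was lower and the others were less different. Lef1, an activator that is itself a Wnt target, had a signal of 7.65 with bexarotene and 7.89 with RA, against 8.85 in untreated EBs and 7.46 in ES cells. It was 2.29-fold below untreated EBs with bexarotene and 1.94-fold with RA. Tcf7l1, mainly a repressor in ES cells, was at 10.47 with bexarotene, 10.47 with RA, 10.72 in untreated EBs and 10.36 in ES cells. Tcf7l2 was at 10.16, 10.24, 10.55 and 8.66 in the same order. All 3 factors were below untreated EBs with both ligands, and only Lef1 was past 1.5-fold.

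None of the 4 feedback genes was past 1.5-fold between EB arrays. Axin2, a scaffold of β-catenin destruction whose transcription is widely read as a measure of canonical signalling, was at 8.66 with bexarotene and 8.54 with RA, against 8.98 in untreated EBs and 8.01 in ES cells. Its difference from untreated EBs was -0.32 with bexarotene and -0.45 with RA, where the robust SD at this signal was 0.117. Nkd1, an inhibitor that binds Dishevelled, was at 8.85 with bexarotene, 8.88 with RA, 8.82 in untreated EBs and 7.41 in ES cells. Rnf43 and Znrf3, the ubiquitin ligases that clear Frizzled, differed by -0.04 and -0.03 with bexarotene, and by -0.19 and 0.0005 with RA. The target genes Lgr5 and Lef1 were past 1.5-fold lower with both ligands. Of all genes, 2.19% were past it lower with bexarotene and 2.29% with RA, so none of 4 says little. Axin2 was lower with both ligands, and both values share the untreated array. The robust SD is that of bexarotene minus RA and does not describe differences from untreated EBs. The target gene Ccnd1 was past 1.5-fold higher with both ligands, by 0.61 with bexarotene and 0.77 with RA. Whether canonical signalling differed was not tested.

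Between the ligands themselves, none of the 54 genes was past 1.5-fold in bexarotene-treated against RA-treated EBs in either direction, where 0.206% of all genes were higher and 0.301% lower. Differences ran from -0.35 (Wnt7b) to 0.52 (Fzd4), with a median of 0.004, beside -0.01 for all genes. Fzd4 was 1.43-fold higher with bexarotene than with RA. Wnt7b and Rspo2 were 1.28-fold lower, Wnt7a 1.24-fold lower, and Fzd10 1.22-fold higher. The closest values were those of Fzd6 and Lgr6, which both differed by 0.002. With 1 array per ligand and unequal doses, these values do not show that the ligands act alike or differently on any of these genes.

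More of the 54 genes differed between untreated EBs and ES cells. In untreated EBs, 19 of the 54 genes were past 1.5-fold higher than in ES cells (35.2%), where 11.2% of all genes were, and 3 were lower (5.56%), where 8.62% were. At 2-fold, 15 were higher and 1 lower, where 5.89% and 3.53% of all genes were. The median log2 difference was 0.31 over the 54 genes and -0.04 over all genes. All 12 receptors were above ES cells, 6 of them past 1.5-fold, while of the 18 ligands 9 were above and 9 below, with 3 past 1.5-fold higher and none lower. Over all 19938 genes, 8676 were above ES cells and 11213 below. The split of the ligands was thus near that of all genes.

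The largest value was that of Lgr5, 13.2-fold higher in untreated EBs than in ES cells, followed by Fzd2 (10.04-fold), Dkk1 (7.80-fold), Fzd3 (5.33-fold) and Fzd8 (5.22-fold). Fzd2, a receptor for canonical and noncanonical ligands, had a signal of 10.54 in untreated EBs, against 7.21 in ES cells. Of the nuclear and feedback genes, Tcf7l2 was 3.70-fold, Nkd1 2.65-fold, Lef1 2.61-fold, Rnf43 2.40-fold and Axin2 1.96-fold higher. Wnt5a (3.62-fold), Wnt8b (2.03-fold) and Wnt11 (1.56-fold) were the 3 ligands past the threshold, of which Wnt11 fell short of it under quantile normalization (0.57). The genes that were lower in untreated EBs were Sfrp4 (3.07-fold), Notum (1.97-fold) and Lgr6 (1.78-fold), and each was also past 1.5-fold lower than ES cells on both treated arrays.

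**Figure D4:**
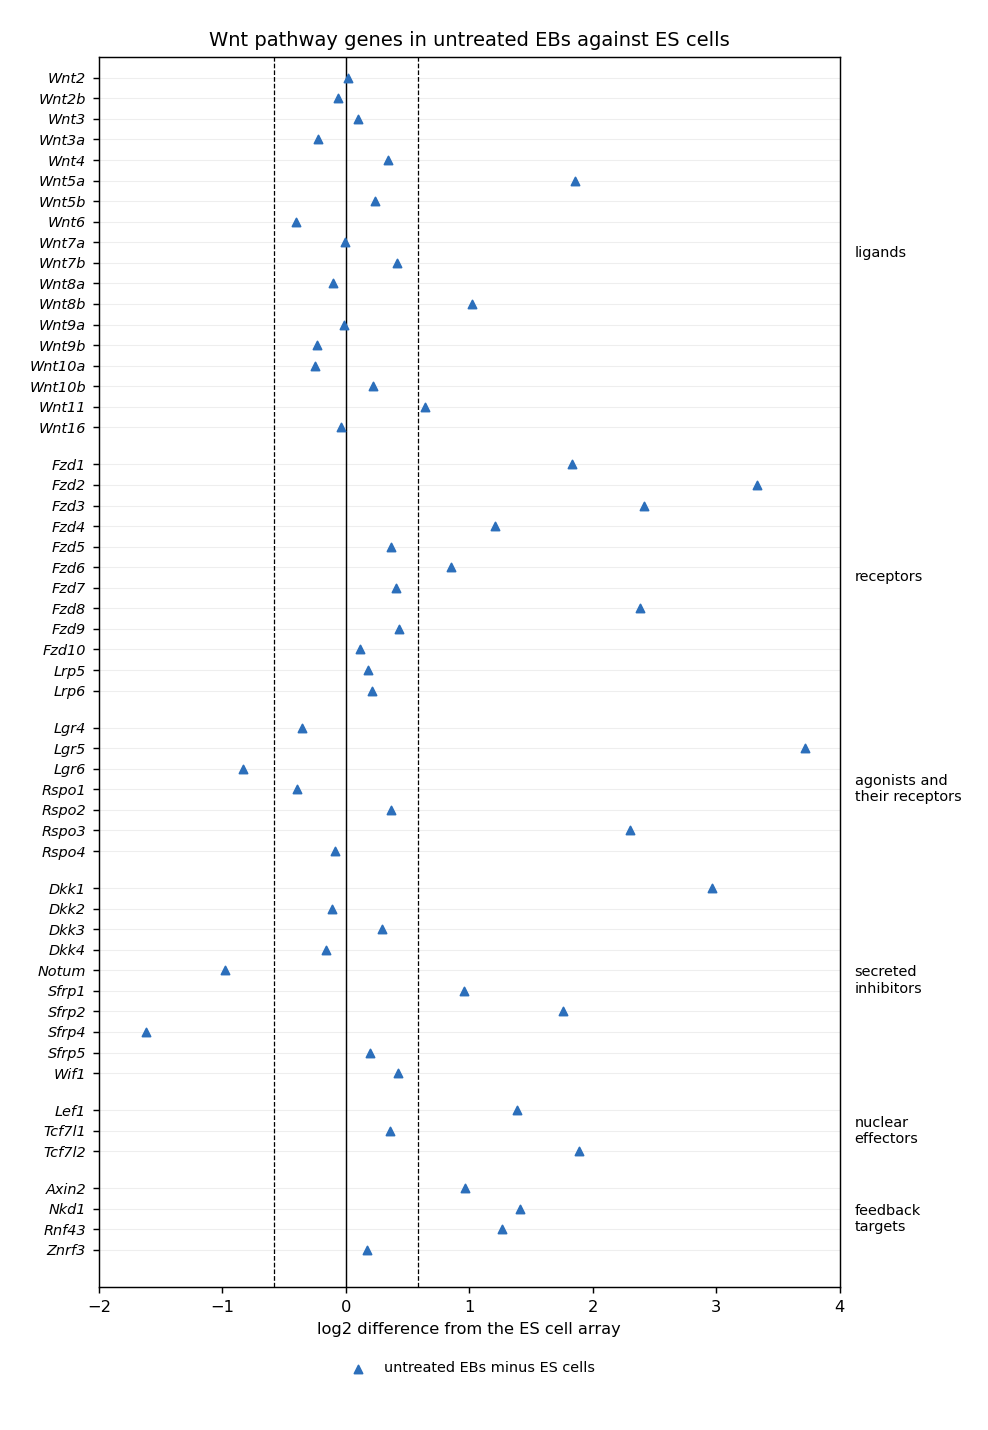
Log2 difference of the untreated EB array from the ES cell array (x axis) for the 54 Wnt pathway genes grouped by role, with dashed lines at 1.5-fold. All 12 receptors lie right of 0, Lgr5 lies furthest right at 3.72, and Sfrp4 lies furthest left at -1.62.

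Set against ES cells, the ligand-treated EBs kept some of these differences and not others. Fzd2 was 7.26-fold above ES cells with bexarotene and 6.98-fold with RA, Fzd3 5.61-fold and 6.08-fold, and Lgr5 4.54-fold and 4.56-fold. Wnt8b differed from ES cells by -0.004 with bexarotene and 0.25 with RA, and Lef1 by 0.19 and 0.43. Rspo3 was 1.63-fold above ES cells with bexarotene and 1.38-fold with RA, compared with 4.94-fold in untreated EBs. Sfrp2 was further from ES cells in treated than in untreated EBs, 9.81-fold higher with bexarotene and 9.16-fold with RA. These comparisons share the ES cell array.

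Marker genes of several cell types differed along with the Wnt pathway genes. Of all genes, 1.52% were past 1.5-fold higher and 2.19% lower with bexarotene, and 2.11% higher and 2.29% lower with RA. With bexarotene, 9 of 9 forebrain genes measured and 6 of 8 anterior endoderm genes were past 1.5-fold lower than in untreated EBs, while 7 of 8 hindbrain genes and 8 of 10 neuronal genes were higher. With RA, 6 forebrain and 6 anterior endoderm genes were lower, and 7 hindbrain and 8 neuronal genes were higher. The median log2 signal of the forebrain list was 7.07 with bexarotene, 7.68 with RA, 9.29 in untreated EBs and 6.65 in ES cells. That of the anterior endoderm list was 7.80, 7.74, 9.01 and 6.79 in the same order, that of the hindbrain list 8.84, 8.76, 6.58 and 6.69, and that of the neuronal list 8.01, 8.69, 6.75 and 6.23. Of 8 cardiac genes 4 were lower with bexarotene and 5 with RA. Among 8 fibroblast genes, bexarotene had 2 lower and RA 3. None of 10 extraembryonic endoderm genes differed past 1.5-fold with either ligand, which says little beside the shares of all genes. Of 10 listed genes of the primitive streak and posterior growth zone, 9 were measured, of which 2 were lower with bexarotene and 1 with RA. Of the 10 genes of pluripotent cells, 1 was past 1.5-fold higher with bexarotene and 8 with RA. The median difference of this list from untreated EBs was 0.36 with bexarotene and 0.67 with RA. Between the ligands, 1 of the 10 was past 1.5-fold, lower with bexarotene, where 0.301% of all genes were. The part of cell composition in the Wnt pathway differences was not tested.

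Of 64 other listed genes of the pathway, all but 1 of the target genes were measured, 63 in all. With bexarotene, 5 were past 1.5-fold higher and 4 lower than in untreated EBs, where 1.52% and 2.19% of all genes were. With RA, 6 were higher and 7 lower, where 2.11% and 2.29% of all genes were. Between the ligands none was past 1.5-fold, where 0.206% of all genes were higher and 0.301% lower. Their median log2 difference was -0.07 with bexarotene and -0.04 with RA. Cer1, an anterior endoderm antagonist of Nodal, BMP and Wnt, had the largest difference, with a signal of 5.84 with bexarotene and 5.79 with RA, against 9.82 in untreated EBs and 5.48 in ES cells. Apcdd1, a membrane inhibitor of Wnt signalling, was below untreated EBs by 3.04-fold with bexarotene and by 2.86-fold with RA. The surface protein Tpbg was 1.59-fold and 1.64-fold lower, and the Wnt5a receptor Ror1 1.501-fold and 1.61-fold. Celsr2, a cadherin of planar cell polarity, was 1.59-fold higher with bexarotene and 2.18-fold with RA, Igfbp4 1.68-fold and 1.51-fold, and Draxin, an axon guidance protein that antagonizes Wnt, 1.61-fold and 1.71-fold.

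None of the 21 cytoplasmic genes of the pathway, among them β-catenin itself (Ctnnb1), Apc, Axin1, Gsk3b and the Dishevelled genes, was past 1.5-fold between EB arrays. With so few of all genes past it, none of 21 says little about this class. Ctnnb1 was at 11.83 with bexarotene, 11.90 with RA, 11.98 in untreated EBs and 11.74 in ES cells. Wls, which carries Wnt proteins to the cell surface, was at 10.26 with bexarotene, 10.07 with RA, 10.62 in untreated EBs and 7.03 in ES cells, so that it differed chiefly between EBs and ES cells. Of the target genes, the cyclin gene Ccnd1 was higher with both ligands, 1.52-fold with bexarotene and 1.71-fold with RA. Myc was 1.41-fold lower with bexarotene, short of the threshold, and 1.83-fold lower with RA. Sp5, a direct target in the embryo, was at 7.00 with bexarotene, 6.79 with RA, 7.35 in untreated EBs and 6.48 in ES cells. Sostdc1 was past the threshold with bexarotene alone (1.55-fold higher). Sp8 and Pygo1 were past the threshold higher, and Cdx2 and Bambi lower, with RA alone, and each of these differed in the same direction with bexarotene. Cdx2 was 1.554-fold lower with RA and 1.499-fold lower with bexarotene, only just short of the threshold. Cer1 and the Cdx genes also stand in the marker lists.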

How the data were processed

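RNA was hybridised to Affymetrix arrays, 1 for each of 4 conditions. The deposited log2 signal per probe set had been background-corrected, normalized and summarized by the authors, with Affymetrix Expression Console. The submitters' notes name GC-RMA and the article RMA, and which of these made the values is unknown. The genome build is not given in the sources used here. Of 35556 probe sets, 21789 carry a single gene symbol in the platform annotation and were used. A gene stands by its probe set of highest mean signal, and was counted where any of its probe sets was past 1.5-fold and none past it the other way. The robust SD was taken over 20 bins of signal. The counting of genes past a threshold was tested on simulated data with known differences, which does not measure the error of these arrays. Named were the members past 1.5-fold between EB arrays and up to 4 more of highest EB signal in each role. Other genes named were chosen after their values were seen. Alternatives were a 2-fold threshold, quantile or loess normalization (span 0.3), a floor at percentile 25, leaving out low signal, and other choices of probe set. Members and lists were chosen with earlier results of these data known. Tcf7 had no probe set with a single symbol and was not analysed here, and 1 Wnt ligand is not reported. Promoter sequences are those of RefSeq. Analyses used Python 3.11.15 with pandas 2.3.3 and statsmodels 0.14.6. With 1 array per condition, precision is limited by the number of arrays.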

Additional observations from a re-analysis of the deposited data

Results flagged for a closer look

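Fzd4 and Wnt7b were singled out because the bexarotene and RA arrays lay on opposite sides of the untreated array, each by more than the robust SD of genes of similar signal. That SD is of bexarotene minus RA and does not describe differences from the untreated array. The share of all genes that meet this rule was not counted, so meeting it does not set these genes apart. For Fzd4 the log2 difference from untreated EBs was 0.19 with bexarotene and -0.32 with RA, with a robust SD of 0.129, so that bexarotene was 0.52 above RA. For Wnt7b, a ligand of neural and epithelial tissue, it was -0.18 with bexarotene and 0.18 with RA, with a robust SD of 0.130, so that bexarotene was below RA by a log2 difference of -0.35. Neither difference is past 1.5-fold, and the difference between the ligands was not tested because each has 1 array.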

How the results depend on the processing

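The counts of members past the threshold and the median differences were recomputed under the alternatives, and 75 of these values remained alike, within 1.5 times for a count and within 0.115 for a median. The exception was the count of members lower in untreated EBs against ES cells, which was 1 at a threshold of 2-fold in place of 3. The count lower with RA, 6 at 2-fold in place of 9, lay at the limit of 1.5 times and counted as alike. The allowance of 0.115 is wider than the medians against untreated EBs, -0.04 with bexarotene and -0.06 with RA. It therefore says little about how stable those medians are. Leaving out low signal gave an RA median of -0.16 in place of -0.06, which still counted as alike. For single named members, 557 values under the 4 alternatives that apply to them kept their side of 1.5-fold, and 3 did not, all under quantile normalization: Fzd6 with bexarotene (-0.57) and with RA (-0.58), and Wnt11 in untreated EBs against ES cells (0.57). No value past the threshold changed sign. The floor, at most 5.22 on any array, lay below every member signal, of which the lowest was 5.39 (Rspo2 with bexarotene). It could therefore change none of these values. Only Wnt4 has more than 1 probe set, so the mean of a gene's probe sets could change only values that involve Wnt4. The same holds for taking only the probe set of highest mean. The counts of 0 between the ligands could not rise at a 2-fold threshold or when low signal was left out. Values that an alternative could not change are not evidence of stability. There was no replicate to leave out. Fzd9, not among those followed by the rule for named genes, was past 1.5-fold higher with bexarotene under quantile (0.61) and loess (0.59) normalization, so that 4 members were higher there in place of 3. Low signal limits 12 members, which were below the array median on all 4 arrays. A further 14 were below it on some arrays, among them Wnt7a, Wnt8b, Rspo3 and Lgr5, and their folds are taken against a low signal.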

Other observations

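Some Wnt genes are direct neighbours among protein-coding genes in the RefSeq annotation (GRCm38.p6), and their values can be set side by side. Wnt6 and Wnt10a, on chromosome 1, differed from untreated EBs by 0.29 and 0.25 with bexarotene and by 0.28 and 0.19 with RA, all short of 1.5-fold. Wnt3 and Wnt9b, on chromosome 11, differed by 0.20 and 0.28 with bexarotene and by 0.19 and 0.14 with RA. Wnt3a and Wnt9a, also on chromosome 11, differed by 0.09 and -0.07 with bexarotene and by -0.06 and -0.05 with RA.

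Fzd10os, annotated as the transcript on the opposite strand of Fzd10, had a signal of 6.90 with bexarotene and 6.84 with RA, against 6.33 in untreated EBs and 6.27 in ES cells. Its difference from untreated EBs was 0.56 with bexarotene and 0.50 with RA, just short of 1.5-fold with both, while that of Fzd10 itself was 0.64 and 0.35.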
